A study of Mus musculus with 4 samples.

Results

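The genes examined were Pomc, Agrp, Npy, Cartpt, Mc4r, Mc3r, Sim1, Bdnf and Ntrk2, which act in the melanocortin and BDNF control of feeding. These 9 protein-coding genes of the 21779 in the RefSeq table of GRCm38.p6 were chosen by their role in feeding, by someone who already knew the peak calls of both libraries, so which of them hold a peak is given as a description. RUVBL2, an AAA+ ATPase found with RUVBL1 in the INO80, SRCAP and TIP60 chromatin complexes and in the R2TP chaperone, was mapped by chromatin immunoprecipitation and sequencing (ChIP-seq) in hypothalamus. All 4 libraries came from wild-type male C57BL/J mice aged 8 weeks, with no treatment named in the labels: 2 were RUVBL2 ChIP libraries, numbered 1 and 2, and 2 were inputs prepared without the antibody. Nothing in the labels tells whether libraries 1 and 2 came from separate animals, so agreement between them may be technical. Whole hypothalamus was used, so each value averages over all its cells.

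POMC is the precursor that neurons of the arcuate nucleus cleave into the satiety peptide α-MSH. α-MSH activates the receptors MC4R and MC3R, whereas AgRP, released with NPY by a neighbouring set of arcuate neurons, opposes it and promotes feeding. CART is a peptide made by many POMC neurons. SIM1 is a transcription factor needed to form the paraventricular nucleus, where MC4R acts, and BDNF with its receptor TrkB, the product of Ntrk2, lowers food intake in the hypothalamus.

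Pomc and Ntrk2 carried a RUVBL2 peak in both lists, at opposite ends of the gene: Pomc near its downstream end and Ntrk2 at its start. A gene was said to hold a peak when a peak of the authors' list overlapped its body or the 3 kb on either side. Bdnf, Mc4r, Mc3r, Sim1, Agrp, Npy and Cartpt held none in either list. The 2 of 9 genes (22.2%, Clopper-Pearson 95% interval 2.81 to 60.0) compare with 21.0% of all protein-coding genes holding a peak in replicate 1, 32.8% in replicate 2 and 17.3% holding a shared region. A shared region is the joined interval of peaks of the 2 lists that overlap by at least 1 bp, of which there were 3111. The count of satiety genes was therefore near that of genes in general.

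The bases before the listed start of 4 of the genes are shown because the peaks relate differently to these starts. Each is the 250 bases upstream of the start listed in the RefSeq promoter table (GRCm38.p6), read 5′ to 3′ on the gene's strand, with every CG pair in capitals. They are Ntrk2 (chr13:58806319-58806568, + strand), Pomc (chr12:3954695-3954944, + strand), Npy (chr6:49822460-49822709, + strand) and Cartpt (chr13:99900684-99900933, - strand).
Ntrk2: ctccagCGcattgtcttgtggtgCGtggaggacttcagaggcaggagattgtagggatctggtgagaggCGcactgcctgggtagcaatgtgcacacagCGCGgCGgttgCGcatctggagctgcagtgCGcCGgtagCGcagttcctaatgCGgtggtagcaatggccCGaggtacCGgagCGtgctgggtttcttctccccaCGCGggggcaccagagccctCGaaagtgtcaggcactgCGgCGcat
Pomc: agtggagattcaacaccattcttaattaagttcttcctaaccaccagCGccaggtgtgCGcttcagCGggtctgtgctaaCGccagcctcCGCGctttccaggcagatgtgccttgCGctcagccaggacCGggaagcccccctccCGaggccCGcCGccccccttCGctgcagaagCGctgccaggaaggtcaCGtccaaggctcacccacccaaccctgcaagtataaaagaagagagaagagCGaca
Npy: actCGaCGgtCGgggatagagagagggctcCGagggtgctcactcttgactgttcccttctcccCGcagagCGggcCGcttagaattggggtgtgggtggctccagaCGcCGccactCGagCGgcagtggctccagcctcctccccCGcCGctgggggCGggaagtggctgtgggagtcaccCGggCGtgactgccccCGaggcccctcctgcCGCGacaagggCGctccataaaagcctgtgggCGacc
Cartpt: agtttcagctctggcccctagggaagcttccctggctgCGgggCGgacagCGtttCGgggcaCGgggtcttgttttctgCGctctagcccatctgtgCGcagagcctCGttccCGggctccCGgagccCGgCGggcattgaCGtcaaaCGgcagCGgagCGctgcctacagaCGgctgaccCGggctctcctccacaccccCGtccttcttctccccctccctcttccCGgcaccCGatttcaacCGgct
These stretches hold 19 CG pairs in Ntrk2, 15 in Pomc, 21 in Npy and 22 in Cartpt. The replicate 2 peak covers the last 70 bases of the Ntrk2 stretch. No peak of either list reaches the stretches of Pomc, Npy and Cartpt. A listed start is not always the outer end of the RefSeq gene body. The Cartpt body extends upstream to 99910179, so its whole stretch lies inside the gene. The Ntrk2 body begins at 58806472, so the end of its stretch, including those 70 bases, lies inside the gene.

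**Figure D1:**
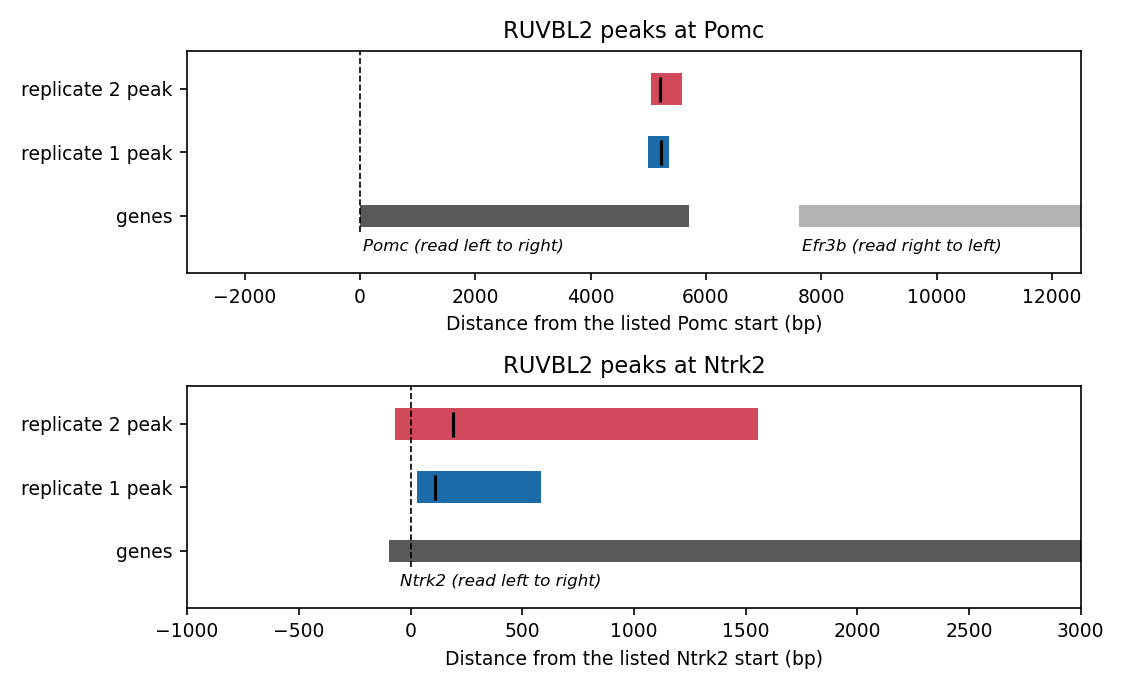
Position of the RUVBL2 peaks at Pomc (top) and Ntrk2 (bottom), as distance in bp from the start listed for each gene (dashed line); coloured bars are the peaks of replicates 1 and 2, black ticks their summits and grey bars the genes. Both Pomc summits lie more than 5 kb past the start, at 5221 and 5200 bp, and both Ntrk2 summits lie just past it, at 111 and 192 bp.

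Pomc (gene 18976) occupies 3954945 to 3960643 on the + strand of chromosome 12. The replicate 1 peak spanned 3959940 to 3960299, 360 bp wide, with its summit at 3960166. The replicate 2 peak spanned 3959997 to 3960523, 527 bp wide, with its summit at 3960145. The summits were 21 bp apart and lay 477 and 498 bp inside the downstream end of the gene. The table used gives no exons, so the region was not assigned to an exon or a UTR.

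The fold enrichment is the authors' value for a peak, the reads piled up at its summit over the background estimated by their peak caller, with 1 added to each. The Pomc peak had a fold of 6.77 (95% counting interval 4.31 to 10.2) in replicate 1, from 21 reads over a background of 2.25. In replicate 2 it had a fold of 6.60 (4.32 to 9.69), from 24 reads over 2.79. The intervals are exact Poisson limits of the pileup, take the fitted background as exact, and leave out every error other than counting. Amplified reads are not independent molecules, so the intervals may be too narrow for counting error as well. By −log10 p, the strength of evidence given by the peak caller, the Pomc peak stood at rank 524 of 3943 in replicate 1 and 1436 of 6403 in replicate 2. The share of peaks with a higher fold was 11.9% and 16.1% of the respective lists, so both libraries placed Pomc well above the middle of their folds.

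Efr3b, which encodes a plasma-membrane scaffold protein, was the other gene within 10 kb of the Pomc region. It runs on the opposite strand, so that its downstream end faces that of Pomc, 2031 bp past the region, while its start lies far beyond. The next coding gene on the other side of Pomc was Dnmt3a, a de novo DNA methyltransferase, 40502 bp away. The start nearest to the summits was in both libraries that of Pomc itself.

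The downstream position of the Pomc region was compared with all shared regions on chromosomes that the promoter table covers. Of 3011 such regions, 2484 (82.5%) had their summit within 1 kb of a listed start, and the median distance was 182 bp. Only 99 (3.29%) lay more than 3 kb from every listed start and from either end of every gene for which no start is listed. Of these, 5 lay within 1 kb of the downstream end of a coding gene. The Pomc region, whose mean summit lies 488 bp from that end, was one of the 5. The others were at Slc26a1 (folds of 5.22 and 5.79 in replicates 1 and 2), an anion transporter gene, at Sh2d6 (4.32 and 5.19), at Prr7 (4.01 and 3.84) and by the facing ends of Shf and Duox1 (6.47 and 4.87). This class was defined after the Pomc position was seen, and the promoter table does not list all starts, so the count is a description.

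Ntrk2 (gene 18212) occupies 58806472 to 59133970 on the + strand of chromosome 13, 327499 bp in all, and its listed start is at 58806569. In replicate 1 the peak spanned 58806600 to 58807150, from 31 to 581 bp downstream of that start, with its summit at 58806680. In replicate 2 it spanned 58806499 to 58808122 and covered the start, with its summit at 58806761. The 2 summits lay 111 and 192 bp downstream of the start and 81 bp from each other. The replicate 2 peak, 1624 bp wide, was broader than nearly all others of its list, of which 0.843% were wider, while the replicate 1 peak was 551 bp wide and 27.7% of its list was wider. The only other gene within 10 kb was the long non-coding RNA gene Gm40968, 9049 bp upstream, so no other coding gene lay near this region.

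The Ntrk2 peak had a fold of 4.51 (95% counting interval 2.77 to 6.98) in replicate 1, from 18 reads over a background of 3.22. In replicate 2 the fold was 6.86 (4.49 to 10.07), from 24 reads over 2.65. The intervals overlap, but overlap is no test of a difference, and whether the libraries differ on the Ntrk2 fold was not tested. In replicate 1 the peak stood at rank 1894 of 3943, close to the middle of the list, and 63.9% of peaks had a higher fold. In replicate 2 it stood at rank 1312 of 6403, with 13.6% of peaks above it in fold. Among the shared regions ordered by the worse of the 2 ranks, Pomc came at position 755 and Ntrk2 at 1023 of 3111.

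**Figure D2:**
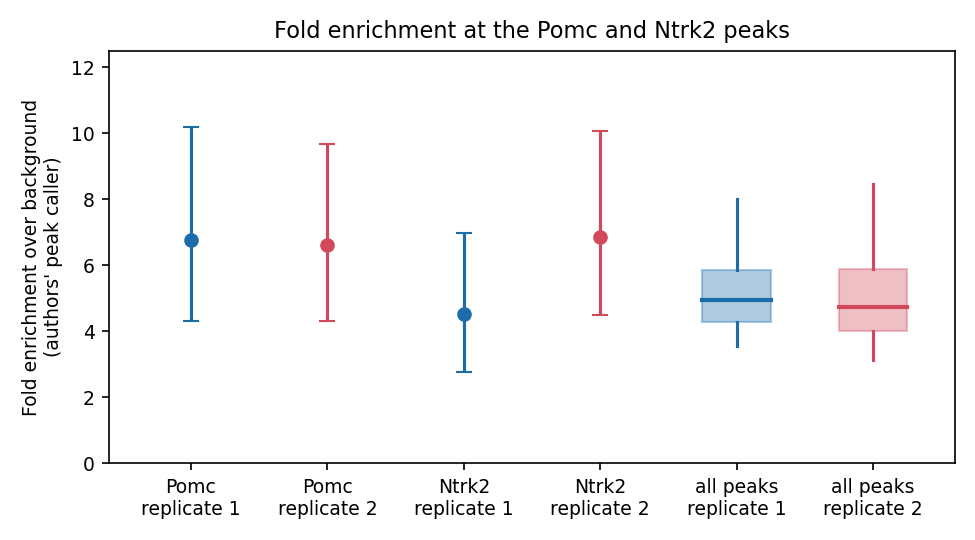
Fold enrichment of the Pomc and Ntrk2 peaks in each replicate (points, with exact Poisson 95% intervals of the summit pileup) beside all peaks of each list (line, median; box, quartiles; whiskers, the 5th to 95th percentile). Pomc is above the list medians of 4.93 and 4.74 in both replicates, and Ntrk2 is above the median in replicate 2 only.

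Folds like those of Pomc and Ntrk2 were also found at other shared regions. The regions closest to Pomc in log2 fold over the 2 libraries were at Rnf2 (6.78 and 6.60), Nr2c2 (6.78 and 6.58) and Cebpg (6.78 and 6.64). Those closest to Ntrk2 were at Rnf214 (4.53 and 6.85), Acbd4 (4.48 and 6.82) and Mtmr2 (4.45 and 6.86). The Cebpg, Rnf214 and Acbd4 regions were also in reach of Gm45095, Pcsk7 and Hexim1. Of the 3111 shared regions, 36 others lay within a distance of 0.1 on the log2 scale of Pomc and 60 of Ntrk2. A pair of folds therefore does not single out either gene.

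The other 7 genes had their nearest peak between 25299 and 558670 bp away, and in each case it lay at another gene. The nearest of all was 25299 bp from Agrp, so no gene sat just outside the 3 kb window. The median distance was 227977 bp in replicate 1 and 193645 bp in replicate 2. Over all coding genes without a peak it was 160629 and 108939 bp. In replicate 1, 5 of the 7 genes were farther from a peak than this general median, and 6 of 7 were in replicate 2. Of the 14 nearest peaks, 1 per gene and list, 9 belonged to a shared region. For the 12 on chromosomes with listed starts, the summit lay 2 to 253 bp from the start of another gene.

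**Figure D3:**
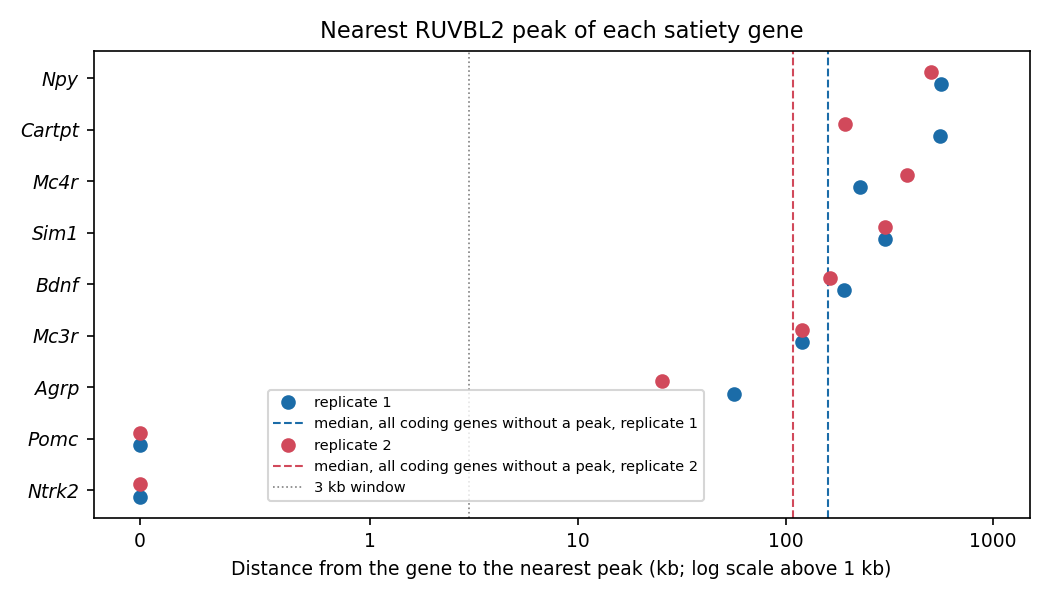
Distance in kb from each satiety gene to the nearest RUVBL2 peak in replicates 1 and 2 (points; the axis is logarithmic above 1 kb), with the median of all coding genes without a peak in each list (dashed) and the 3 kb window (dotted). Pomc and Ntrk2 are at 0, Agrp is closest among the rest at 56682 bp in replicate 1 and 25299 bp in replicate 2, and Npy is farthest at 558670 and 503090 bp.

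Of the peptide genes without a peak, Agrp (gene 11604, chromosome 8, 105566695 to 105579845) lies in a gene-dense stretch, with 49 other coding genes within 500 kb and Atp6v0d1, a subunit of the vesicular proton pump, 631 bp away. Its nearest peak in replicate 1 was 56682 bp off, at the start of the insulator-protein gene Ctcf, with a fold of 7.71 (5.05 to 11.3). In replicate 2 a peak with a fold of 4.75 (2.88 to 7.45) lay closer, at 25299 bp, 125 bp from a start inside Ripor1. Replicate 1 listed no peak nearer than that of Ctcf, so the nearer one rests on a single library. Within 500 kb of Agrp, where the 49 other coding genes lie, there were 6 and 14 peaks in replicates 1 and 2 and 3 shared regions. No peak lay at Agrp itself.

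Npy (gene 109648, chromosome 6, 49822710 to 49829507) was the emptiest of the loci: neither list had a peak within 500 kb. The nearest lay at 558670 bp in replicate 1, by the splicing-factor gene Tra2a, and at 503090 bp in replicate 2, by Ccdc126. Peaks were nearer to 81.4% of coding genes in replicate 1 and to 86.5% in replicate 2. Cartpt (gene 27220, chromosome 13, 99898483 to 99910179) differed between the lists. Its nearest peak was 553458 bp away in replicate 1, at Ptcd2, which encodes a mitochondrial RNA-binding protein. In replicate 2 it was 193645 bp away, at Bdp1, a subunit of the RNA polymerase III factor TFIIIB.

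Both melanocortin receptor genes are short, and Mc3r was the nearer of them to a peak. Mc4r (gene 17202, chromosome 18, 66857705 to 66860487) was 227977 bp from a replicate 1 peak at Gnal, a G-protein α subunit gene and its next coding neighbour, with a fold of 4.76 (2.84 to 7.55). Replicate 2 listed no peak there, and its nearest was 384895 bp away at Mppe1, with a fold of 5.30 (3.47 to 7.78). Mc3r (gene 17201, chromosome 2, 172248492 to 172251114) had the same nearest region in both libraries, at 119737 and 119583 bp. The first distance is under the replicate 1 median of coding genes without a peak, and the second is slightly over that of replicate 2. That region lay at the neighbouring starts of Aurka, a mitotic kinase, and Cstf1, a polyadenylation factor, with folds of 4.32 (2.44 to 7.16) and 3.59 (2.47 to 5.05).

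Sim1 (gene 20464, chromosome 10, 50894698 to 50989156) likewise had a single nearest region in both libraries, at the start of the helicase gene Ascc3, 301605 and 301739 bp away, with folds of 5.55 (3.36 to 8.70) and 4.80 (3.17 to 6.998). Bdnf (gene 12064, chromosome 2, 109674700 to 109727043) has 7 listed starts spread over 48221 bp, and none had a peak. Its nearest peak in replicate 1 was 190719 bp off at Lgr4, a receptor for R-spondins, with a fold of 6.16 (3.83 to 9.45). In replicate 2 it was at the closer gene Lin7c, a synaptic scaffold, 163495 bp off, with a fold of 6.28 (4.15 to 9.16). Bdnf thus held no peak and its receptor gene Ntrk2 did, in both libraries. In the melanocortin pathway it was the other way round: Pomc held a peak and the receptor genes Mc4r and Mc3r held none.

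The lowest summit pileup in the lists was 10 reads in replicate 1 and 11 in replicate 2, and the lowest background 2.24 and 2.65 reads. Occupancy that gave fewer reads than this at a gene was not detectable at this depth. In whole tissue, occupancy in few cells and weak occupancy in many cannot be told apart.

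The starts of the satiety genes were then compared in base composition, which the choice of genes did not use. The promoter table gave 13 listed starts for 7 of the genes, each with a window of 300 bases; Mc4r and Agrp were not among them. A shared region lay within 1 kb of 15.4% of all 21263 listed starts of coding genes. This share was higher at CpG-rich starts: it was 29.0% where the CpG observed over expected ratio was at least 0.6, and 2.93% below 0.6. Of the 13 starts, 7 had a ratio of at least 0.6 and 1 of them, that of Ntrk2, had a region, while none of the 6 below 0.6 did. Bdnf alone gave 7 of the 13 starts, and every start below 0.6 except that of Mc3r, so the starts are not separate genes.

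Ntrk2 had the highest ratio of the 13, 0.835, with 23 CG pairs and 61.3% G+C. Sim1 (0.821) and Cartpt (0.804) came close behind it, and Npy (0.693) and Pomc (0.692) were nearly equal, but no peak lay at these 4 starts. The 7 Bdnf starts ranged from 0.179 to 0.676. The median was 0.874 over starts with a region and 0.459 over starts without, so the Ntrk2 start lies slightly under the middle of the former.

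**Figure D4:**
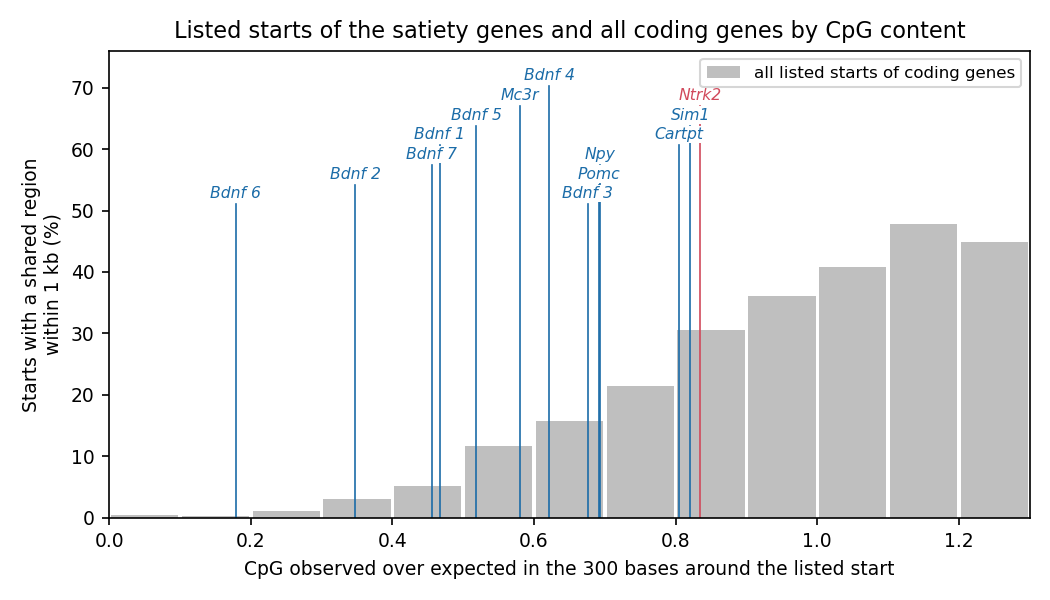
Share of listed starts of coding genes with a shared region within 1 kb (grey bars, %) by CpG observed over expected in the 300 bases around the start; vertical lines mark the 13 listed starts of the satiety genes (red, with a region; blue, without), and their height carries no value. The leftmost bar is at 0.492% and the rightmost, of 109 starts, at 45.0%. The lowest bar is 0.326% (ratio 0.1 to 0.2) and the highest 47.8% (1.1 to 1.2). Ntrk2 is the rightmost of the satiety genes.

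Short motifs were searched on both strands of the same windows. GGGCGG, the GC box bound by SP factors, was in 6 of the 13, including those of Ntrk2, Pomc, Npy and Cartpt, and in 46.2% of all windows. CCAAT, read by NF-Y, was in 2 of 13, those of Mc3r and Npy, and in 38.2% of all. TGACGTCA, the cyclic-AMP response element, was in the Cartpt window alone and in 2.23% of all. CACGTG, an E-box, and the 10-base palindrome of NRF1 were in none of the 13 and in 7.84% and 1.33% of all. None of these motifs contains another. A match is only a run of letters and does not show binding.

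The other genes of these pathways were counted in the same way, beside the 17.3% of all coding genes with a shared region. In the melanocortin pathway it was 4 of 24 genes (16.7%, Clopper-Pearson 95% interval 4.74 to 37.4). They were Creb1, the cyclic-AMP-responsive transcription factor (folds of 5.23 in replicate 1 and 7.96 in replicate 2), Arnt2, the partner of SIM1 (5.55 and 4.44), Atrn, the attractin gene that acts with agouti (4.87 and 3.98), and Pam, the enzyme that amidates α-MSH (4.01 and 3.79). These 4 regions lay 29 to 81 bp from a listed start of the gene. Receptors Mc2r, Mc5r, Npy1r, Npy2r, Npy4r and Npy5r, the accessory genes Mrap and Mrap2, and the convertase genes Pcsk1 and Pcsk2 held no peak in either list.

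Among 21 regulators of POMC and AgRP neurons, 3 held a shared region (14.3%, 3.05 to 36.3). These were Sh2b1, an adaptor of leptin and insulin receptors (6.15 and 7.66), Nr3c1, the glucocorticoid receptor (7.09 and 6.64), and Sirt1, a deacetylase (8.94 and 6.13). The leptin receptor gene Lepr, its effector genes Stat3 and Socs3, and Foxo1 held no peak. Among 31 further genes of BDNF and TrkB signalling, 7 held a shared region (22.6%, 9.59 to 41.1). In the lists taken singly, 11 of the 31 (35.5%, 19.2 to 54.6) held a peak in replicate 1, against 21.0% of coding genes, and 15 (48.4%, 30.2 to 66.9) in replicate 2, against 32.8%. Of the effectors of the receptor the 7 included Plcg1, the phospholipase (8.13 and 7.06), Grb2, an adaptor (4.56 and 4.83), and Sos1, its exchange factor (4.32 and 4.70). The Grb2 region lay 8503 bp from the listed start of its gene, those of Plcg1 and Sos1 116 and 24 bp. Of the transcriptional regulators linked to Bdnf the 7 included Usf2 (7.71 and 7.73) and Usf1 (5.19 and 7.66). The Usf1 and Usf2 regions were also in reach of neighbours, Arhgap30 and Lsr. The neurotrophin genes Ntf3 and Ntf5 and the receptor genes Ntrk3 and Ngfr held no peak in either list.

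**Figure D5:**
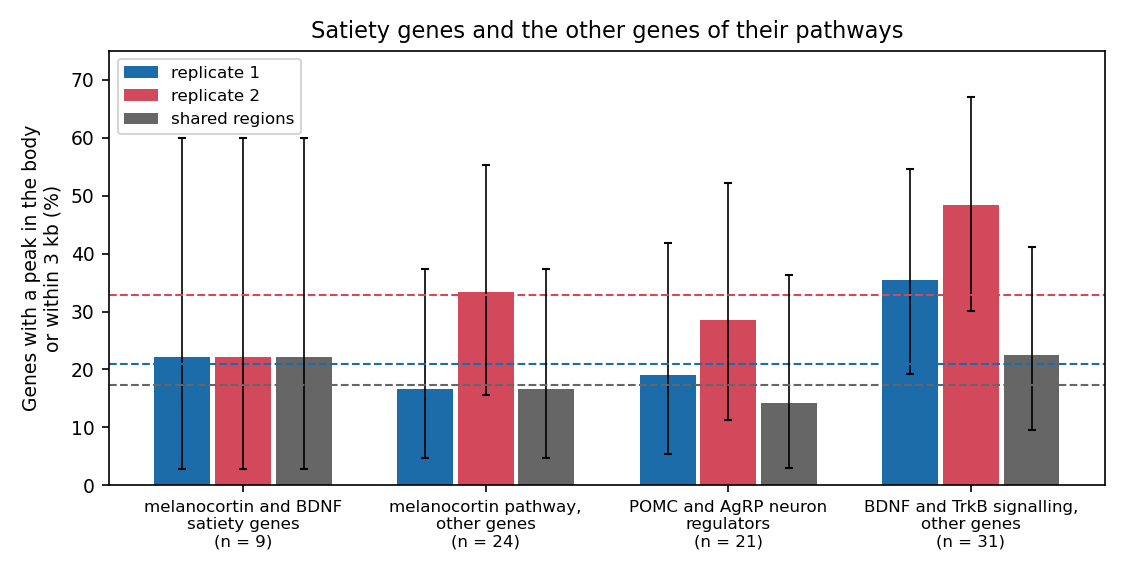
Share of genes with a peak in the body or within 3 kb (bars, %, with Clopper-Pearson 95% intervals) in replicate 1, replicate 2 and as shared regions, for the 9 satiety genes and 3 lists of related genes; dashed lines give the same share over all coding genes. The interval of each bar contains the matching share of all coding genes. The genes were chosen with earlier results known, so this is a description and no test.

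Peaks at marker genes do not measure expression and were used here only to describe the tissue. Against 17.3% of all coding genes, 1 of 20 markers of hypothalamic neurons (5%) held a shared region, namely Hmx2. So did 2 of 12 pan-neuronal markers (16.7%), Eno2 and Rbfox3, and 1 of 10 ependymal and tanycyte markers (10%), Col23a1. Only 1 of the 2 pan-neuronal markers had a peak of each list within 3 kb. The other was reached by the joined region and its replicate 1 peak only. The Hmx2, Eno2 and Col23a1 regions were also in reach of Bub3, Atn1 and Phykpl. The Hmx2, Rbfox3, Eno2 and Col23a1 regions lay 6242, 190995, 13165 and 294843 bp from the nearest listed start of the marker itself. No shared region was held by any of 10 astrocyte, 10 microglia, 10 endothelial and mural or 10 pituitary and testis markers (Clopper-Pearson upper limit 30.8% each). The same held for 12 oligodendrocyte markers (26.5%). Replicate 2 alone had peaks at the astrocyte markers Slc1a2 and Aldoc, the oligodendrocyte marker Cnp and the neuronal markers Tubb3, Nefm and Stmn2. The tissue label could not be checked from these lists.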

How the data were processed

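The deposited lists hold peaks and summits called per ChIP library, and no separate values of the inputs were used here. MACS2 2.1.0, Bowtie2 2.3.4.1, Trimmomatic 0.33, bcl2fastq 2.17, ChIPseeker and the build GRCm38 appear in the submitters' processing notes; their settings and the control used for calling: not given in the sources used here. Every deposited peak carries the authors' fold enrichment (a ratio), a −log10 p and a −log10 q. The deposited score is the whole part of 10 times that −log10 q. No peak had a −log10 q below 1.32 (replicate 1) or 1.34 (replicate 2). Peak names of replicate 2 carry another number than its title, so the list was assigned by its sample.

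Total reads per library were not used here. Pileup and background were solved from fold and −log10 p with Python 3.11.15 and scipy 1.17.1. Only whole pileups were tried. For 100% of peaks the best one gave the −log10 p within a relative tolerance of 0.0001, and the step was tested on simulated data. RefSeq rows (49603, after leaving out 340 in the first part of a chromosome, which is a gap) gave gene bodies. Starts and strand came from the RefSeq promoter table, which matched 7 of the 9 genes and 17492 of 21779 coding genes.

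The satiety genes and the related lists were chosen with earlier results of these data known, so no test was made on them: counts stand beside those of all coding genes. The base composition classes and the class of regions at downstream ends were defined after values were seen. Named genes were, by rule, all 9 genes, genes within 10 kb of their peaks, coding neighbours, genes at the nearest peaks, list genes with a shared region in order of rank (some list genes are counted but not reported here by name), and the 3 regions with the most similar folds. List genes without a peak, marker genes with one, and the other regions at downstream ends were named after their values were seen. Windows, peak thresholds, overlap rules and single libraries were tried as alternatives.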

Additional observations from a re-analysis of the deposited data

How the results depend on the processing

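No paired analysis was possible because the input libraries gave no values of their own here and the result comes from no test. Of 52 alternative values, 40 stayed within 1.5 times the main count, within the counting interval of a fold or within the spread between the replicates. Counts of satiety genes with a peak were 2 with windows of 1 and 10 kb, with either library alone, with stricter overlap and with the nearest gene end only. With peaks of −log10 q of at least 5, the count of satiety genes was 1 for shared regions and 1 in replicate 1: Ntrk2, with a −log10 q of 4.84 in replicate 1, was lost. At that threshold 8.58% of all coding genes had a shared region and 10.5% a replicate 1 peak. With the top 1000 peaks of each list it was 0 for shared regions, 1 in replicate 1 (Pomc) and 0 in replicate 2, where all coding genes had 3.12%, 6.23% and 5.78%. At a −log10 q of at least 5, shared regions were at 2 genes of the melanocortin list and 4 of the BDNF and TrkB list, and the median distance to the nearest peak in replicate 1 was 384771 bp. With 1 library left out, the counts ran from 4 (replicate 1 alone) to 8 (replicate 2 alone) in the melanocortin list, from 4 to 6 among the regulators and from 11 to 15 in the BDNF and TrkB list. The share of all coding genes also rose, from 21.0% in replicate 1 to 32.8% in replicate 2. Replicate 2 gave the longer list, 6403 peaks against 3943. Few reads, a median of 16 and 22 at a summit, limit each fold.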

Other observations

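Several pathway genes held a peak in 1 library only. Without a shared region, 3.71% of all coding genes had a replicate 1 peak and 15.5% a replicate 2 peak, so most such genes were of replicate 2. In the melanocortin list these were 4 genes, all in replicate 2: Mc1r, the melanocortin receptor of pigment cells (fold of 5.75), Mgrn1, the mahogunin ubiquitin ligase (4.43), Prcp, which degrades α-MSH (3.42), and Cpe, a prohormone-processing carboxypeptidase (2.93). The Mc1r peak, at 123411250 to 123412008 on chromosome 8, was also within reach of the neighbouring neuronal tubulin gene Tubb3, so it cannot be given to one of them. Among the regulators, Ptpn1, a phosphatase acting on leptin and insulin signalling, held a peak in replicate 1 only (3.82), and Hdac5 (6.01), the insulin receptor gene Insr (4.41) and Pou3f2 (3.33) in replicate 2 only.

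In the BDNF and TrkB list, 4 genes held a peak in replicate 1 only and 8 in replicate 2 only, of 31. The former were Shc1 (4.74), Gab1 (4.01), Rest (4.01), a repressor of neuronal genes, and Furin (3.70), a convertase that cleaves the BDNF precursor. The latter ran from Srf (5.74) and Rps6ka1 (5.70) to Sort1 (3.78), which encodes the proneurotrophin receptor sortilin. These values rest on 1 library each and have no replicate check. Both counts are larger shares of this list than the 3.71% and 15.5% of all coding genes counted in the same way. The list was chosen with earlier results known, and the difference was not tested.

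The median number of other coding genes within 500 kb was 7 for the 9 satiety genes and 16 for all coding genes, and the median number of shared regions within 500 kb was 1 and 2. Agrp, with 49, was the only one above the general median of coding genes, and Pomc (4) and Agrp (3) were above that of shared regions. Sim1 had 2 coding genes and 1 shared region in that reach.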
